A study of Mus musculus with 16 samples.

Results

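The 10 genes described here encode the mouse MHC class II machinery: the antigen-binding chains H2-Aa, H2-Ab1 and H2-Eb1, the invariant chain Cd74, the peptide-loading chains H2-DMa, H2-DMb1 and H2-DMb2, the loading modulators H2-Oa and H2-Ob, and the transactivator Ciita. They were chosen by name, and their probes were found through the accession that the scanner output gives for each spot. All 10 were on the array, among 20284 genes with a named probe. H2-Ab1 and H2-Ob had 2 probes each and the other 8 genes had 1, which makes 12 probes.

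Class II molecules are pairs of an alpha and a beta chain that display peptides from endosomes to CD4 T cells. Cd74 binds new pairs and fills their groove, cathepsins trim it to a short remnant, and the DM heterodimer exchanges that remnant for peptide, while the DO heterodimer restrains DM. CIITA switches most of the set on through a shared promoter module bound by RFX, CREB-family and NF-Y proteins, and among myeloid cells the set is best known from dendritic cells and activated macrophages.

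The study asked how the transcription factor IRF8 and its relation to C/EBPalpha shape myeloid progenitors. RNA of 8 groups, with 2 arrays each from separate experiments, was hybridised to 1-colour Agilent arrays. Primary bone marrow cells were sorted from wild-type (WT) or Irf8-deficient (Irf8KO) mice as monocyte-dendritic cell progenitors (MDPs) or as common monocyte progenitors (cMoPs), and these cells carried no vector. 32Dcl.3 cells, a mouse myeloid progenitor line grown here in WEHI3B-conditioned medium, received a pair of MSCV retroviruses and were taken on day 3.

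In 32Dcl.3 cells 1 vector carried a truncated human CD8 marker and the other puromycin resistance, and all 4 groups carried both. The control held both vectors empty, the C/EBPalpha group held C/EBPalpha in the puromycin vector beside the empty CD8 vector, the IRF8 group held IRF8 in the CD8 vector beside the empty puromycin vector, and the last group held both factors. Each sort or culture is a bulk sample, so fewer cells of a type and less RNA per cell cannot be told apart. The age, sex and strain of the mice are not given in the labels.

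Levels below are scaled log2 levels: log2 of a probe's processed signal minus log2 of that array's 75th percentile. A level of 0 is that percentile. A value was counted as measured where the scanner software flagged the probe as well above background. Changes are differences of these levels with a standard error (SE) from limma over the 8 arrays of a system, 2 a group, and a change passed at an adjusted p under 0.05. Levels of different probes depend on the probe and are not set against each other.

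The 3 slides held MDPs, 32Dcl.3 cells and cMoPs, so every comparison of 2 groups stayed within a slide. The 75th percentile of signal lay between 67.8 and 81.0 for MDPs, between 455.6 and 567.9 for cMoPs and between 147.3 and 460.1 for 32Dcl.3 cells, and no spot was saturated. IRF8-transduced groups and Irf8KO MDPs lay in row 2 of their slides and their controls in row 1, and Irf8KO cMoPs lay in other columns than WT, so slide position and group cannot be told apart. The 1 named Irf8 probe was well above background on all 8 progenitor arrays, lower in the knockout by 0.55 ± 0.04 in MDPs and 1.48 ± 0.04 in cMoPs on the log2 scale (SE, n = 2 and 2). It was not above background on any 32Dcl.3 array, those with the IRF8 vector included, so it checks neither label. All 9 progenitor markers examined were above background in the 4 sorted groups, while Kit and Cx3cr1 were not in 32Dcl.3 cells.

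Some of these genes share an arrangement of motifs in their promoters. The set of RefSeq promoter sequences used here (GRCm38.p6) held 7 of the 10 genes, with 2 starts for H2-DMa, which makes 8 entries. Cd74, H2-Ab1 and Ciita had no entry in that set, which says nothing about their starts in RefSeq. A stretch of 57 bases was printed only where an NF-Y box lay near the start on the strand opposite the gene, which gave 6 stretches. They are written 5′ to 3′ on the gene's strand. Capitals mark ATTGG, the reverse complement of the NF-Y box CCAAT, and GCAAC, a half-site of RFX proteins.
H2-Aa, chr17:34287860-34287916, minus strand: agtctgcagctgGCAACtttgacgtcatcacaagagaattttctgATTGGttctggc
H2-Eb1, chr17:34305763-34305819, plus strand: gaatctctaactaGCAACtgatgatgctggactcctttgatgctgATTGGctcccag
H2-DMb1, chr17:34153085-34153141, plus strand: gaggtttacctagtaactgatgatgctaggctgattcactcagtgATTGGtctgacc
H2-DMb2, chr17:34145114-34145170, plus strand: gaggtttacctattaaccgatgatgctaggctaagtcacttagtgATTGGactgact
H2-Oa, chr17:34092291-34092347, plus strand: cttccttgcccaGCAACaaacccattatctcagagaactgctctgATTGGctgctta
H2-Ob, chr17:34238803-34238859, plus strand: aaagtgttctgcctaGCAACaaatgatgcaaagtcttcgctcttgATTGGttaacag

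The strand of the NF-Y box in the 6 printed stretches and its nearness to the start were set by how the stretches were chosen. The box began 43 bases before the start in H2-Oa, 48 in H2-Aa, 57 in H2-Ob, 59 in H2-Eb1, 61 in H2-DMb1 and 90 in H2-DMb2. GCAAC preceded it by 25 bases in H2-Ob, 27 in H2-Eb1 and 28 in H2-Aa and H2-Oa. Neither H2-DMb1 nor H2-DMb2 held GCAAC within the 250 bases before the start, and their printed stretches resemble each other over most of their length. Neither H2-DMa start had this arrangement: 1 had GCAAC 7 bases before it on the opposite strand, and the other had an NF-Y box 198 bases before it. H2-Eb1 held a further NF-Y box, on its own strand, 35 bases before the start.

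The 250 bases before all 32851 starts of the promoter set used here were searched on both strands. CCAAT was in 33.8% of promoters and in 7 of the 8 member entries. GCAAC was in 29.9% of promoters and 5 of 8 entries. TGACG, a half-site of CREB-family proteins, was in 17.8% and 1 of 8, H2-Aa, where its matches on both strands overlap each other. GCAAC followed by 25 to 28 bases and then ATTGG, searched on the gene's strand, was in 31 promoters, 0.0944% of all, and in 4 of 8 member entries. That spacing was set after these stretches had been read, so its share is a description. The composite ETS-IRF motif (GGAA, any 2 bases, GAAA) was in 2.30% and the IRF motif (GAAA, any 2 bases, GAAA) in 2.98% of all promoters, on both strands. Neither was in these letters in any of the 8 entries, which says nothing about IRF8 elsewhere.

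**Figure D1:**
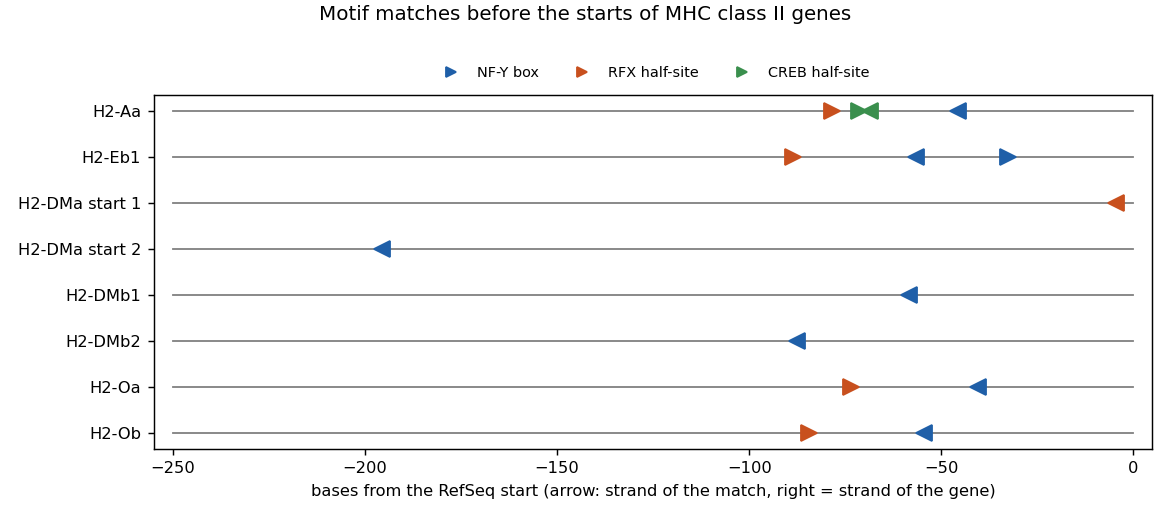
Positions of motif matches in the 250 bases before 8 RefSeq starts of 7 class II genes. The x axis is the distance from the start in bases, each line is 1 start, colours give the motif and an arrow pointing right a match on the gene's strand. The NF-Y boxes of the 6 printed stretches, chosen as near the start on the opposite strand, lie 43 to 90 bases before it. Of them, 4 follow an RFX half-site.

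In 32Dcl.3 cells IRF8 raised all 10 class II genes. Higher calls covered 22.7% of the 13335 genes tested, lower calls 25.5% and both directions 48.2%. The groups did not overlap in 75.3% of all genes tested, so with 2 arrays a group a lack of overlap is common. The median change of the 10 genes was 5.01 as fitted, or 4.03 with genes that were dim in the control set at their lower bound, against -0.03 over all genes. With both vectors empty 6 of the 10 genes were above background on both arrays, H2-Eb1 was on 1, and H2-Aa, H2-Ab1 and H2-DMb2 were on neither. With IRF8 all 10 were above background on both arrays. H2-Aa, H2-Ab1, H2-Eb1 and H2-DMb2 were kept for testing only because they were above background in the IRF8-transduced groups. Their higher calls follow largely from that filter and are no separate support. The 6 genes measured on both control arrays were not kept in this way. All 10 were higher under each scaling tried.

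**Figure D2:**
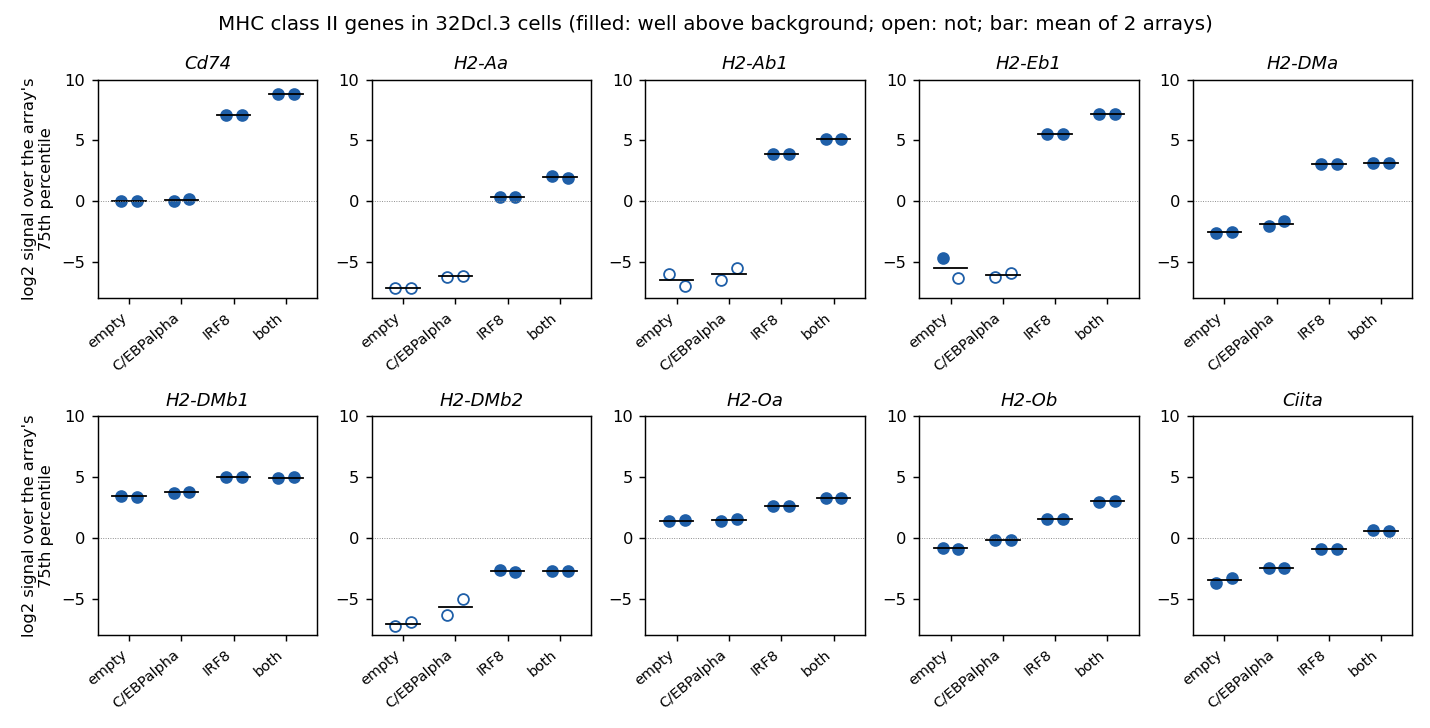
Scaled log2 level (y axis, log2 signal over the array's 75th percentile) of the 10 class II genes on each 32Dcl.3 array, by group on the x axis. Filled points are well above background, open points are not, and bars are means of 2 arrays. Both IRF8-transduced groups lie above both other groups for every gene.

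The invariant chain gene Cd74 stood at 0.02 and 0.03 on the empty-vector arrays and at 7.09 and 7.12 on the IRF8 arrays. The difference of 7.08 ± 0.04 (adjusted p = 2.27e-16) is a 135-fold rise, far beyond the gap between arrays of a group. With C/EBPalpha alone the levels were 0.01 and 0.16, which overlap the control. The group with both factors read 8.79 on each array. Cd74 was thus already measured in the control and answered IRF8 with and without C/EBPalpha.

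The antigen-binding chains went from background to clear signal. H2-Aa, the alpha chain of the I-A pair, read 0.33 and 0.39 with IRF8 and was not well above background on either control array. Its rise was at least 44.7-fold (adjusted p = 3.16e-12). Such bounds set the dim group at the lowest signal that counted as above background on each array. H2-Ab1, the beta chain of I-A, read 3.88 on both IRF8 arrays and was likewise dim in the control, a rise of at least 513-fold (adjusted p = 1.45e-10). H2-Eb1, the I-E beta chain, read -4.71 and -6.36 with empty vectors, only the first of them above background, and 5.52 and 5.53 with IRF8. Its fitted change was 11.06 ± 0.36 (adjusted p = 2.49e-10) and rests on 1 measured control array.

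The peptide-loading genes were unequal. H2-DMa, the alpha chain of DM, went from -2.59 and -2.53 to 3.07 on both IRF8 arrays, a change of 5.63 ± 0.09 (adjusted p = 5.44e-13). H2-DMb1, one of its beta partners, went from 3.49 and 3.40 to 5.05 and 5.002, a change of 1.58 ± 0.05 (adjusted p = 1.45e-10). H2-DMb2, the other beta chain, read -2.64 and -2.78 with IRF8 and was below background in the control, a rise of at least 5.31-fold (adjusted p = 4.27e-06). Both DM chains with a measured control rose without overlap, H2-DMa by the larger amount. H2-DMb1 and H2-DMb2 are close copies, and whether the probe of 1 also binds the other's transcript was not tested.

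Both DO genes and Ciita rose. H2-Oa, the DO alpha chain, went from 1.36 and 1.44 to 2.65 and 2.66, a change of 1.25 ± 0.05 (adjusted p = 8.60e-10). H2-Ob, the beta chain, went from -0.81 and -0.89 to 1.54 and 1.52, a change of 2.38 ± 0.05 (adjusted p = 4.12e-12). Ciita, the transactivator, went from -3.70 and -3.28 to -0.90 and -0.94, a change of 2.57 ± 0.13 (adjusted p = 1.82e-08). All 3 were already measured in the control.

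IRF8 raised the set in the presence of C/EBPalpha as well. Against C/EBPalpha alone, 10 of 10 genes were higher, where 34.4% of all genes were called higher, 38.0% lower and 72.4% in either direction. Cd74 rose by 8.71 ± 0.04, Ciita by 3.11 ± 0.13, H2-DMa by 4.96 ± 0.09, H2-Ob by 3.18 ± 0.05, H2-Oa by 1.83 ± 0.05 and H2-DMb1 by 1.21 ± 0.05, with adjusted p from 1.12e-17 to 8.65e-10. H2-Aa rose at least 73.8-fold, H2-Ab1 at least 654-fold, H2-Eb1 at least 2665-fold and H2-DMb2 at least 2.84-fold, with these 4 genes dim on both C/EBPalpha arrays. The same 4 genes were kept for testing only through the IRF8-transduced groups, so their calls here are no separate support. Against empty vectors, which the earlier comparison also used, both factors together gave 10 of 10 higher, with 38.1% of all genes called higher, 46.8% lower and 84.8% in either direction. There Cd74 stood at 8.76 ± 0.04 and Ciita at 4.10 ± 0.13.

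C/EBPalpha alone left the set low. H2-Aa, H2-Ab1 and H2-DMb2 were below background on both arrays with and without it, and H2-Eb1 on all but 1. Of the 10 genes 6 passed as higher and none as lower, with 31.6% of all genes higher, 47.1% lower and 78.7% called in either direction, a share above that of these genes. The call for H2-Aa and H2-DMb2 compares levels that were both below background and gives no fold.

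The 4 measured genes that rose did so by small steps. Ciita went to -2.50 on both arrays, a change of 0.99 ± 0.13 (adjusted p = 2.26e-05). H2-DMa went to -2.02 and -1.66 (0.72 ± 0.09, adjusted p = 1.60e-05) and H2-Ob to -0.19 and -0.16 (0.68 ± 0.05, adjusted p = 6.56e-08). H2-DMb1 went to 3.69 and 3.80 (0.30 ± 0.05, adjusted p = 0.000115) and stood at -0.01 when arrays were scaled to their median. The change of Cd74 was 0.06 ± 0.04 (adjusted p = 0.220) and that of H2-Oa 0.07 ± 0.05 (adjusted p = 0.171), and neither passed. Under scaling to the array median, which moved the median of all genes to -0.45, they passed as lower (-0.25 and -0.24), and with the 75th percentile of detected probes as higher (0.27 and 0.28).

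**Figure D3:**
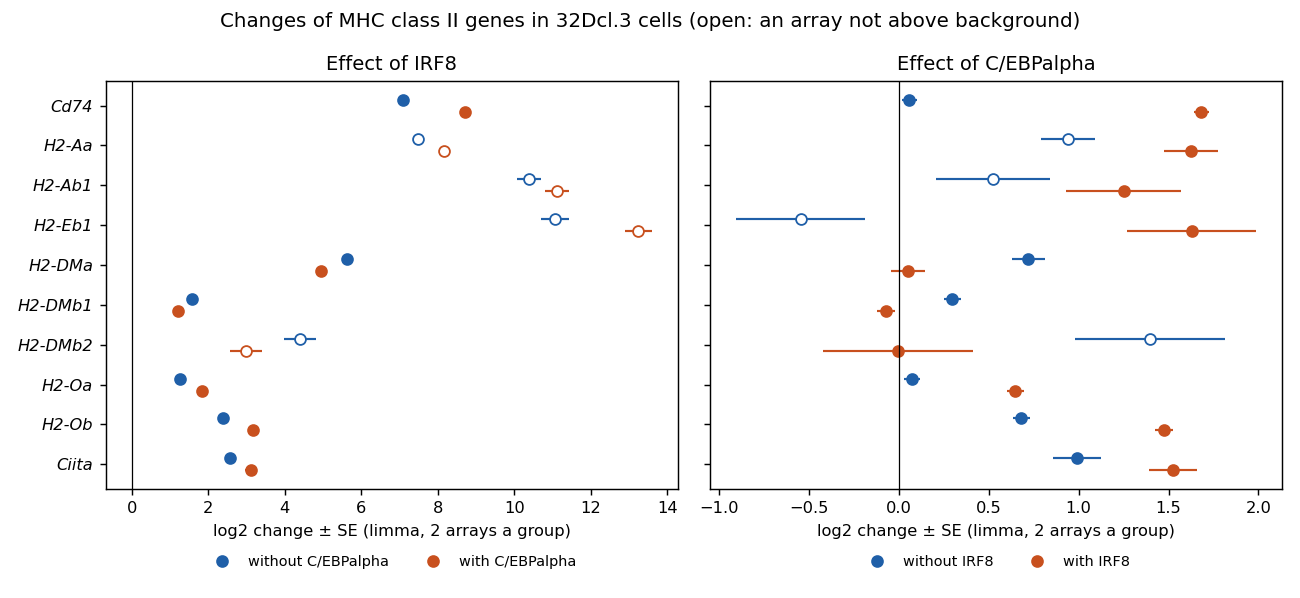
Changes of the 10 class II genes (x axis, log2 change with limma's SE as bars) for IRF8 without and with C/EBPalpha (left) and C/EBPalpha without and with IRF8 (right). Open points have an array below background on 1 side or on both, so their position is a fitted value and not a measured fold. The changes with IRF8 run from 1.21 to 13.24 and those with C/EBPalpha from -0.55 to 1.68.

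Adding C/EBPalpha to IRF8 split the set. Of the 10 genes 7 were higher than with IRF8 alone and none lower, where 36.0% of all genes were higher, 46.2% lower and 82.2% called in either direction. Cd74 rose by 1.68 ± 0.04 (adjusted p = 2.70e-12), H2-Aa by 1.62 ± 0.15, H2-Eb1 by 1.63 ± 0.36 and H2-Ab1 by 1.25 ± 0.32. Robust moderation in limma ended the calls of H2-Eb1 (adjusted p = 0.0533) and H2-Ab1 (adjusted p = 0.0667). Ciita rose by 1.52 ± 0.13, from -0.90 and -0.94 to 0.67 and 0.54. H2-Ob rose by 1.48 ± 0.05, from 1.54 and 1.52 to 3.00 and 3.01, and H2-Oa by 0.65 ± 0.05, from 2.65 and 2.66 to 3.31 and 3.29. The antigen-binding chains, their chaperone, the DO chains and the transactivator were the genes that gained.

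The 3 DM genes did not pass. H2-DMa read 3.12 on both arrays with both factors (0.05 ± 0.09, adjusted p = 0.617). H2-DMb1 read 4.90 and 5.01 (-0.07 ± 0.05, adjusted p = 0.182). H2-DMb2 read -2.73 and -2.70, which lie between the IRF8 values (-0.00 ± 0.42, adjusted p = 0.994). Of these 3, H2-DMb1 and H2-DMb2 overlapped between the groups and H2-DMa did not, where 90.9% of all genes did not.

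The sizes in this comparison move with the scaling. The 75th percentile was 367.0 and 368.6 on the IRF8 arrays and 153.8 and 147.3 on those with both factors. Before scaling, the mean signal with both factors over that with IRF8 was 1.31 for Cd74, 1.27 for H2-Eb1, 1.26 for H2-Aa, 1.18 for Ciita, 1.14 for H2-Ob, 0.973 for H2-Ab1, 0.641 for H2-Oa, 0.424 for H2-DMa, 0.408 for H2-DMb2 and 0.389 for H2-DMb1. Scaling to the array median shifted the median of all genes to -0.78 in this comparison. Under it Cd74 stood at 0.99, Ciita at 0.83, H2-Ob at 0.78 and H2-Ab1 at 0.55, all still higher, while H2-Oa was at -0.049 (adjusted p = 0.478), H2-DMa at -0.65 and H2-DMb1 at -0.77, the last pair now lower. Quantile normalization, the 75th percentile of detected probes and the deposited values put H2-DMa at 0.33 to 0.38 and H2-DMb1 at 0.23 to 0.26, all of them passing as higher.

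A ratio within 1 array is free of that choice. Cd74 over H2-DMa was 4.02 and 4.05 with IRF8 and 5.66 and 5.68 with both factors, on the log2 scale. H2-Eb1 over H2-DMa was 2.45 and 2.46 against 4.02 and 4.05, and Ciita over H2-DMa was -3.97 and -4.01 against -2.46 and -2.57. H2-DMb1 over H2-DMa was 1.98 and 1.93 against 1.77 and 1.89. The first 3 ratios moved by more than the gap between arrays of a group and show unequal change of these genes, with the pairs chosen after the levels were seen.

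**Figure D4:**
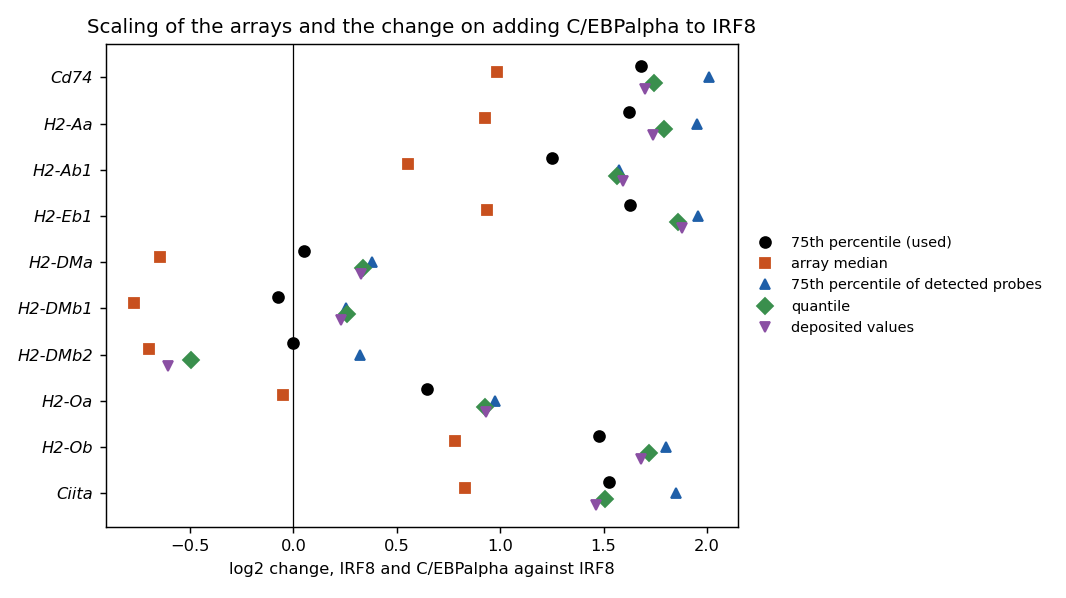
Log2 change of each class II gene on adding C/EBPalpha to IRF8 (x axis) under 5 ways of making the arrays comparable, shown by marker. Cd74, H2-Aa, H2-Ab1, H2-Eb1, H2-Ob and Ciita stay above 0 under all 5, while H2-DMa, H2-DMb1, H2-DMb2 and H2-Oa fall on both sides of 0.

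The interaction asks whether the effect of IRF8 differed with C/EBPalpha. It passed for 8 of the 10 genes, where 55.7% of all genes were called, 23.8% as positive and 31.9% as negative. It was positive for Cd74 (1.62 ± 0.06, adjusted p = 1.04e-09), H2-Ob (0.79 ± 0.07), H2-Oa (0.57 ± 0.07) and Ciita (0.53 ± 0.19, adjusted p = 0.0312). It was negative for H2-DMa (-0.67 ± 0.13, adjusted p = 0.00107) and H2-DMb1 (-0.37 ± 0.07, adjusted p = 0.000670). The terms of H2-Aa (0.68 ± 0.21) and H2-Eb1 (2.18 ± 0.51) also passed but are not measured sizes: H2-Aa was below background on all 4 arrays without IRF8 and H2-Eb1 on 3 of them. H2-Ab1 (0.72 ± 0.45, adjusted p = 0.193) and H2-DMb2 (-1.40 ± 0.59, adjusted p = 0.0635) did not pass. The call for Ciita was lost without any 1 of 6 of the 8 arrays, with adjusted p up to 0.115. Median scaling ended those for Ciita (0.14), H2-Aa (0.30) and H2-Oa (0.19), and quantile normalization that for H2-DMa (-0.16, adjusted p = 0.353). The call for H2-Eb1 was lost without the intensity trend (adjusted p = 0.0528) and with robust moderation (adjusted p = 0.0858). That for H2-Aa was lost with no filter on dim probes (adjusted p = 0.0558), without either IRF8 array (0.0891 and 0.0708) and without the first array with both factors (0.0907). With no filter and without the trend that for Ciita was lost too (adjusted p = 0.0961 and 0.0680).

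In sorted MDPs the loss of Irf8 lowered 3 class II genes and raised 1. H2-Aa was below background on all 8 progenitor arrays and was not tested, which left 9 genes. The 4 calls among 9 compare with 51.4% of the 11960 genes tested, and the share of these genes is near that background. Higher calls covered 22.7% and lower calls 28.6% of all genes, and the groups did not overlap in 72.4%.

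**Figure D5:**
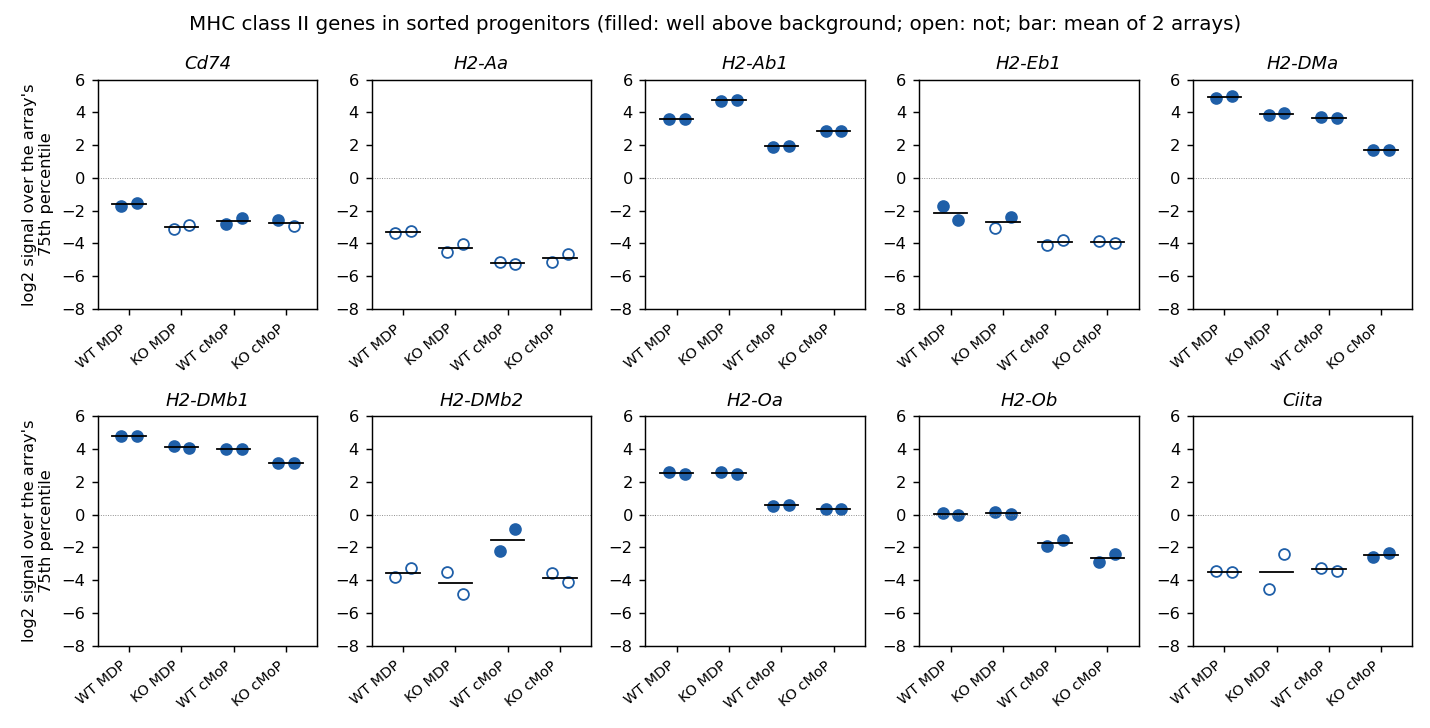
Scaled log2 level (y axis) of the 10 class II genes on each array of WT and Irf8KO MDPs and cMoPs (x axis). Filled points are well above background, open points are not, and bars are means of 2 arrays. H2-Ab1 is higher and H2-DMa and H2-DMb1 are lower in the knockout at both stages, without overlap.

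H2-Ab1 read 3.61 and 3.58 in WT MDPs and 4.70 and 4.77 in Irf8KO MDPs. The rise of 1.15 ± 0.04 (adjusted p = 7.60e-09) ran opposite to the change of its loading partners, and its second probe gave 1.13. Cd74 was dim at this stage, with -1.70 and -1.53 in WT and no value above background in the knockout. It was at least 1.98-fold lower (adjusted p = 0.000976), a call that was lost with a normexp background correction (-0.14, adjusted p = 0.223).

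H2-DMa and H2-DMb1 fell. H2-DMa went from 4.89 and 4.998 to 3.83 and 3.99, a change of -1.03 ± 0.06 (adjusted p = 2.06e-07). H2-DMb1 went from 4.78 and 4.82 to 4.19 and 4.09, a change of -0.66 ± 0.04 (adjusted p = 5.18e-07). H2-DMb2 and Ciita were below background in both genotypes and did not pass. The DO genes did not pass, with 2.62 and 2.49 against 2.59 and 2.51 for H2-Oa (adjusted p = 0.937) and 0.09 and -0.03 against 0.17 and 0.02 for H2-Ob (adjusted p = 0.812). H2-Eb1 read -1.73 and -2.54 in WT and was above background on 1 knockout array, at -2.36 (-0.57 ± 0.37, adjusted p = 0.227).

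In cMoPs, the later stage, 5 class II genes were lower without Irf8 and 1 was higher. Of 9 genes tested 6 passed, against 54.0% of all genes, with 22.9% higher and 31.2% lower. H2-Ab1 again rose, from 1.91 and 1.96 to 2.85 on both knockout arrays (0.92 ± 0.04, adjusted p = 2.02e-08), and its second probe gave 0.91. H2-DMa fell from 3.72 and 3.65 to 1.72 on both arrays, by 1.97 ± 0.06 on the log2 scale (adjusted p = 9.32e-10). H2-DMb1 fell from 4.01 and 4.0 to 3.13 and 3.14 (-0.87 ± 0.04, adjusted p = 3.43e-08). These 3 genes kept their MDP direction with groups that did not overlap, as in 81.9% of all genes in cMoPs.

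H2-DMb2 was measured in WT cMoPs, at -2.20 and -0.89, and on no other progenitor array. H2-DMb2 was at least 2.96-fold lower in the knockout (adjusted p = 0.00403). It was kept for testing only through WT cMoPs, where it was high, so its place in the count of lower genes is no separate support. H2-Ob fell from -1.94 and -1.58 to -2.92 and -2.42 (-0.91 ± 0.19, adjusted p = 0.00206), and its second probe gave -0.46. H2-Oa fell from 0.56 and 0.59 to 0.33 on both arrays (-0.24 ± 0.06, adjusted p = 0.00715). Without the second WT cMoP array the calls for H2-DMb2 (-1.65, adjusted p = 0.0561) and H2-Oa (-0.22, adjusted p = 0.0518) were lost.

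The other 3 genes did not pass in cMoPs. Cd74 read -2.79 and -2.46 in WT and -2.56 and -2.90 in the knockout, the last not above background (adjusted p = 0.741). H2-Eb1 was below background on all 4 arrays. Ciita read -2.57 and -2.37 in Irf8KO cMoPs, the only progenitor arrays on which it was above background. Its change of 0.86 ± 0.56 had an adjusted p of 0.221, but 0.00799 when only the 4 cMoP arrays were fitted. Ciita was kept for testing only through Irf8KO cMoPs, so neither value is separate support for a rise.

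The effect of the knockout differed between the stages for 5 of 9 genes, where 24.8% of all genes were called, 11.6% as positive and 13.2% as negative, and stage and slide cannot be told apart. The fall of H2-DMa was larger in cMoPs, with a difference of -0.94 ± 0.08 (adjusted p = 2.31e-05). H2-Ob (-0.97 ± 0.27), H2-Ab1 (-0.22 ± 0.06) and H2-DMb1 (-0.22 ± 0.06) were also negative, and Cd74 was positive (1.27 ± 0.35), with adjusted p from 0.0168 to 0.0236. The Cd74 term is not a measured size, since Cd74 was below background on both Irf8KO MDP arrays and on 1 Irf8KO cMoP array. It was 0.23 with normexp (adjusted p = 0.213), and its call was also lost with quantile normalization (adjusted p = 0.0524), with no filter on dim probes (0.0779) and without the second WT MDP (0.0582), the first WT cMoP (0.0943) or the first Irf8KO cMoP array (0.0983). The count was 1 without the first Irf8KO cMoP array, 2 without the second WT cMoP array, and 3 without the second WT MDP, the first Irf8KO MDP, the first WT cMoP or the second Irf8KO cMoP array. Without the intensity trend the calls of H2-Ob (adjusted p = 0.0665), H2-Ab1 (0.0527) and H2-DMb1 (0.0775) were lost. Only that of H2-DMa was kept under each alternative and with each array left out. The second probe of H2-Ab1 gave -0.23 and did not pass (adjusted p = 0.0737).

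The 10 genes did not follow a single course across the series. Over all 16 arrays, each centred on its slide, the levels of Cd74 and H2-Eb1 had a Pearson r of 0.990 and those of H2-DMa and H2-DMb1 0.971, while Ciita and H2-DMb2 had 0.645. These values describe arrays that share groups and slides and are dominated by the IRF8-transduced groups, and 9 of the 10 genes could be used. Among 11128 other genes the closest to Cd74 were Psmb9 (0.985), Wdfy1 (0.984) and Otulinl (0.982), and to H2-Eb1 Psmb9 (0.988), Wdfy1 (0.980) and Parp9 (0.979). The closest to H2-DMa was Tnni2 (0.991), to H2-DMb1 Slc14a1 (0.986), to H2-DMb2 Asgr2 (0.973), to H2-Oa Glipr1 (0.998), to H2-Ob Creb3 (0.992), to H2-Ab1 Parp9 (0.985) and to Ciita Eif2ak3 (0.953).

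Of the 10 genes 8 lie in 1 stretch of chromosome 17, in the order H2-Oa, H2-DMa, H2-DMb2, H2-DMb1, H2-Ob, H2-Ab1, H2-Aa and H2-Eb1 in RefSeq. Between them lie 6 other genes, of which 5 were tested. With IRF8 against empty vectors, the immunoproteasome genes Psmb9 (1.08 ± 0.04) and Psmb8 (0.85 ± 0.03) and the peptide transporter gene Tap1 (0.44 ± 0.04) rose. The chromatin reader gene Brd2 (0.06 ± 0.04) and Tap2 (0.06 ± 0.03), the partner of Tap1, did not pass. Their class II neighbours in the same stretch changed by 1.25 or more on the same arrays. In Irf8KO cMoPs Psmb8 fell (-0.69 ± 0.04) while Tap2 rose (0.52 ± 0.04), so genes of the stretch moved in both directions there.

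Other genes of the class II route were read on the same arrays. With IRF8 in 32Dcl.3 cells, where 22.7% of all genes were higher and 25.5% lower, all 6 tested lysosomal processing genes rose (median 0.91), with Ctss, the cathepsin that cuts the invariant chain, at 5.74 ± 0.06 and the protease inhibitor Cst3 at 3.29 ± 0.03. All 4 tested costimulation genes rose, with the checkpoint ligand Cd274 at 2.28 ± 0.04. Of 10 tested genes upstream of Ciita 7 rose and none fell, and of 8 genes for factors of the class II promoter module 1 rose and 1 fell (median -0.03). Of 5 tested genes for other chains and for class II turnover 2 rose and 3 fell, among them the Cd74 ligand gene Mif (-0.22 ± 0.03) and the ubiquitin ligase genes Marchf1 (-0.21 ± 0.04) and Marchf8 (-0.18 ± 0.05).

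On adding C/EBPalpha to IRF8, where 36.0% of all genes were higher and 46.2% lower, 5 of 6 lysosomal genes rose, with the aspartic protease gene Ctsd at 2.08 ± 0.03, and Marchf1, whose product marks class II molecules for degradation, rose by 2.54 ± 0.04. None of the 8 promoter module genes rose and 6 fell, with the NF-Y subunit gene Nfyc at -1.03 ± 0.05 and the RFX subunit gene Rfxank at -0.67 ± 0.05. Mif fell by 1.33 ± 0.03. In the same comparison Ciita and 4 genes of the antigen-binding chains and invariant chain rose.

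In the knockout a pair of cathepsin genes fell at both stages. Ctsh fell by 4.59 ± 0.04 in MDPs and 3.61 ± 0.04 in cMoPs, and Ctss by 1.42 ± 0.04 and 3.42 ± 0.04. Ifi30, the lysosomal thiol reductase gene, fell by 1.92 ± 0.08 in cMoPs. Ctsl, another cathepsin gene, rose by 1.15 ± 0.06 and 0.88 ± 0.06, and the interferon gamma receptor gene Ifngr1 by 1.42 ± 0.05 and 1.36 ± 0.05. Of 8 lysosomal genes 3 rose and 3 fell in MDPs, and 3 rose and 5 fell in cMoPs. Of 8 promoter module genes 3 rose and 1 fell in MDPs, and 2 rose and 2 fell in cMoPs. The 4 calls of 8 at each stage are near the 51.4% and 54.0% of all genes called.

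Class II genes also mark other cell types, so markers of those cells were read on the same arrays, as summed linear levels relative to the 75th percentile. The class II sum was 15.2 to 15.7 with empty vectors, 17.9 to 19.4 with C/EBPalpha, 250 to 252 with IRF8 and 680 to 688 with both. The sum of 11 B cell markers was 2.09 to 2.12 with empty vectors, 1.51 to 1.54 with IRF8 and 2.03 to 2.04 with both, and Pax5, Igll1, Blk and Fcrla were not above background in either IRF8-transduced group. The sum of 12 dendritic cell markers was 228 to 244, 234 to 250 and 509 to 538 in these groups, with Xcr1, Clec9a, Cd209a and Spib not above background in any of them. The sum of 11 monocyte and macrophage markers was 50.7 to 51.2, 146 to 147 and 180 to 182. The sum of 10 neutrophil markers was 631 to 648 with empty vectors, 4970 to 5050 with C/EBPalpha, 253 to 254 with IRF8 and 2540 to 2570 with both. On adding C/EBPalpha to IRF8, the comparison in which 7 class II genes gained, all 10 neutrophil markers were higher (median 3.59). Basophil, mast cell and eosinophil markers, 6 in all, summed to 7.48 to 7.55 with empty vectors, 15.1 to 15.3 with C/EBPalpha, 1.66 to 1.73 with IRF8 and 2.83 to 2.92 with both. The part of these shifts in the class II results was not tested.

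In the progenitors the sums were read by genotype. The class II sum was 77.4 to 79.4 in WT and 66.1 to 67.5 in Irf8KO MDPs, and 35.2 to 35.4 and 21.2 to 21.3 in cMoPs. B cell markers summed to 36.8 to 38.2 in WT and 50.9 to 51.9 in Irf8KO MDPs, and to 15.7 to 15.8 and 16.2 to 16.3 in cMoPs, with Ms4a1, Ebf1 and Fcrla not above background in any of the 4 groups. Dendritic cell markers summed to 91.5 to 94.8 and 115 to 118 in MDPs and to 193 to 198 and 215 to 225 in cMoPs. Neutrophil markers summed to 4800 to 4970 and 6050 to 6060 in MDPs and to 2230 to 2330 and 3620 to 3680 in cMoPs. By gene, 6 of 10 neutrophil markers were higher and 4 lower in Irf8KO MDPs, among the latter S100a9 (-1.38 ± 0.08) and Cebpe (-0.60 ± 0.04), and all 10 were higher in Irf8KO cMoPs. Monocyte and macrophage markers summed to 587 to 607 and 777 to 785 in MDPs and to 369 to 380 and 321 to 329 in cMoPs. The 6 basophil, mast cell and eosinophil markers summed to 16.8 to 17.1 in WT and 2.85 to 3.31 in Irf8KO MDPs. All 5 tested were lower there (median -3.28). In cMoPs these markers summed to 4.97 to 5.02 in WT and 5.79 to 6.19 in the knockout. By gene, 1 of 5 tested was higher in Irf8KO cMoPs and 3 were lower (median -1.03). Prg2, Cpa3 and Fcer1a were above background only in WT MDPs and were kept for testing only through that group. Their calls are no separate support. The 6 erythroid markers summed to 3.91 to 4.27 in WT and 0.443 to 0.561 in Irf8KO MDPs, and to 2.45 to 2.52 and 0.767 to 0.878 in cMoPs. Both tested genes were lower in MDPs (median -3.82), but none of the 6 was above background in Irf8KO MDPs. That median is not a measured size, and the -3.28 above draws partly on such levels. Of all genes tested, 28.6% were lower in MDPs. In cMoPs 22.9% were higher and 31.2% lower. The part of these marker shifts in the class II changes was not tested.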

How the data were processed

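Total RNA was labelled with Cy3, and each array was scanned and quantified by the authors with Agilent Feature Extraction 10.7.3.1 (mm9 design), per the file headers. The deposited processed signals are linear intensities after background subtraction, and the deposited flags (outlier, well above background, saturated) are of unit "other". The authors' series table was read as processed intensities, log2-transformed and used as an alternative. Its scaling and centring are not given in the sources used here.

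Of 62976 spots, 59305 were not controls. Outlier spots were removed (102 to 198 an array), spots of a probe averaged, and 34 probes missing on an array dropped. Probes were named through their accession with RefSeq (26762 of 55681, 20284 symbols). Processed signals were divided by each array's 75th percentile and log2-transformed. Probes well above background on both arrays of a group, in any of a system's 4 groups, were kept, and the brightest was used per gene. limma 3.58.1 in R 4.3.3 (lmFit on group means, eBayes with trend; 4 residual and 6.07 or 7.24 prior degrees of freedom) was fitted to the 8 arrays of each system over all genes, with Benjamini-Hochberg adjustment within a comparison. The number of arrays, 2 a group, limits precision. The fit was tested on simulated data. Python 3.11.15 and pandas 2.3.3 made the tables.

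All 10 genes are reported in every comparison. Of listed pathway genes, the 3 largest passing rises and falls were eligible to be named, and like genes are those with the highest Pearson r. The members, lists and tests were chosen with earlier results of these data known. Normexp used the raw median signals, as the files hold no mean signal. Correlations of same-numbered arrays' deviations were -0.067 to 0.078, so experiment numbers were not treated as pairs. Second probes were fitted on their own, an alternative chosen after seeing the data. A marker first listed is not reported here.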

Additional observations from a re-analysis of the deposited data

Results flagged for a closer look

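The effect of IRF8 differed with C/EBPalpha, by limma's interaction term on the log2 scale, for Cd74 (1.62), H2-Eb1 (2.18), H2-Ob (0.79), H2-Aa (0.68), H2-Oa (0.57) and Ciita (0.53), all positive, and for H2-DMa (-0.67) and H2-DMb1 (-0.37), both negative. The values of H2-Aa and H2-Eb1 are not measured sizes, as H2-Aa was below background on all 4 arrays without IRF8 and H2-Eb1 on 3 of them.

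The effect of the Irf8 knockout differed between cMoPs and MDPs, by the difference of the contrasts made within each slide, for Cd74 (1.27), H2-Ab1 (-0.22), H2-DMa (-0.94), H2-DMb1 (-0.22) and H2-Ob (-0.97). The Cd74 value rests on levels below background on both Irf8KO MDP arrays and 1 Irf8KO cMoP array and was 0.23 with normexp (adjusted p = 0.213). Of these 5 genes only H2-DMa kept its call under each alternative and with each array left out. Stage and slide cannot be told apart in these 5 values.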

How the results depend on the processing

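Of 87 results, 55 kept their side of the threshold under each of 12 alternatives that gave a value and with each array left out. Those that passed also kept their direction. For changes that did not pass in either fit, direction was not compared and could differ. The replicate block, with the experiment number as a factor, gave 10 calls of 10 for IRF8 against empty vectors, 7 for both factors against IRF8, 4 in MDPs and 6 in cMoPs, the same counts as without it, and no count in the other comparisons moved by over 1.5 times. Requiring signal above background on all 8 arrays leaves 6 class II genes in 32Dcl.3 cells, so the counts became 6 for IRF8 against empty vectors, for both factors against empty vectors and for both factors against C/EBPalpha, and 4 for both factors against IRF8. The 5 stage differences became 3 with normexp and with no filter on dim probes and 2 without the intensity trend, and ranged from 1 to 6 when 1 array was left out.

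Directions reversed as follows, among changes that passed in the main or the alternative fit. For C/EBPalpha against empty vectors, median scaling gave -0.25 for Cd74, -0.01 for H2-DMb1 and -0.24 for H2-Oa, normexp gave 0.66 for H2-Eb1, the deposited values gave -0.29 for H2-Aa, and leaving out 1 array gave -1.37 to 0.28 for H2-Eb1. For both factors against IRF8, median scaling gave -0.65 for H2-DMa and -0.049 for H2-Oa, normexp gave -0.21 for H2-DMa and 0.48 for H2-DMb2, and H2-DMb1 was 0.25 with the percentile of detected probes, 0.26 with quantile normalization and 0.23 with the deposited values. Ciita in MDPs, below background in both genotypes, ranged from -1.07 to 1.06 when 1 array was left out. Median and percentile scaling move all genes of an array by 1 constant. Quantile normalization and the deposited values do not, and the cause of reversals under them, normexp or a left-out array was not tested. Signal over background limits Cd74, H2-Aa, H2-Eb1, H2-DMb2 and Ciita in progenitors.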
